A study of Rattus norvegicus with 12 samples.

Results

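Cardiac transcription factors are the DNA-binding proteins, and the coactivator that works with them, that switch on heart muscle genes. The 10 genes described here are Gata4, Gata6, Mef2a, Mef2c, Mef2d, Nkx2-5, Tbx5, Tbx20, Srf and Myocd, chosen by gene symbol from the deposited count and FPKM tables, which hold 18469 genes. All 10 symbols were found and all 10 passed the filter on low counts in each of the 5 tests below.

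RNA was sequenced from neonatal rat ventricular myocytes (NRVMs), heart muscle cells taken from the ventricles of newborn Sprague-Dawley rats and grown in culture. The cells received a negative control siRNA (siNeg) or an siRNA against Slc25a26 (siSlc25a26), the gene of a mitochondrial carrier of S-adenosylmethionine. Phenylephrine (PE), an agonist of α-adrenergic receptors that makes cardiomyocytes grow, was then added or left out. The 12 libraries were described by the submitters as independent biological replicates and held 26870531, 25415568 and 26370534 counts in siNeg, 25731019, 26171547 and 24770972 in siNeg PE, 27884490, 28709049 and 27708544 in siSlc25a26, and 27774608, 26792198 and 27329392 in siSlc25a26 PE.

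The 4 groups, with 3 libraries each, shared the strain and the cell type, and the labels name no altered allele. They were siNeg without PE, siNeg PE, siSlc25a26 without PE, and siSlc25a26 PE. Per the labels, PE was present for 36 h and was started 12 h after transfection, whereas the paper's methods give other times for these steps. The paper names this series but describes an siRNA against another gene beside siNeg, so what the 6 siSlc25a26 libraries received rests on the labels alone. Such cultures come from immature hearts, and although the study's methods include a density gradient that separates cardiomyocytes from fibroblasts, markers of other cells were measured below, and the siRNA against Slc25a26 is described by its name only, so effects of its sequence and of its target cannot be told apart.

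GATA4 and GATA6 are zinc finger factors that bind GATA motifs, the MEF2 proteins and SRF are MADS-box factors that bind AT-rich sites, NKX2-5 is a homeobox factor, and TBX5 and TBX20 are T-box factors. They bind together at the control regions of genes for contractile proteins, ion channels and natriuretic peptides, and mutations of several of them cause congenital heart disease. SRF binds the CArG box and works with myocardin, the product of Myocd, or with related coactivators on muscle genes, and with ternary complex factors on immediate early genes, while GATA4 and MEF2 proteins are known mediators of hypertrophic signals.

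Slc25a26 itself was measured first as a check of the labels. It stood at 33.2, 31.6 and 29.3 CPM (counts scaled to library size with edgeR's TMM factors) in siNeg libraries 1, 2 and 3, and at 15.8, 14.9 and 14.7 CPM in siSlc25a26. Under PE it stood at 113, 106 and 86.2 CPM in siNeg PE and at 102, 106 and 98.8 CPM in siSlc25a26 PE. Without PE the groups did not overlap and the siSlc25a26 libraries were lower (log2 fold change -1.08, edgeR adjusted p = 1.08e-05), whereas under PE the groups overlapped (-0.01, edgeR adjusted p = 0.969). The siSlc25a26 PE libraries therefore did not show the lower level that their label implies, and they are named below as the libraries labelled siSlc25a26 PE. The deposited counts of Slc25a26 were not whole numbers, so reads may be shared with another entry and its level is uncertain. In contrast, 10 interferon response genes, which cells switch on when they sense foreign RNA or interferon, had a median log2 fold change of 6.35 in siSlc25a26 without PE and of 6.49 in the libraries labelled siSlc25a26 PE, in each case against the matching siNeg group. Their summed FPKM was 83.7, 94.6 and 77.3 in siNeg, 62.8, 55.1 and 57.9 in siNeg PE, 4682, 4364 and 4426 in siSlc25a26, and 2557, 2547 and 2282 in the libraries labelled siSlc25a26 PE, with Irf7 as the most abundant gene by mean in siSlc25a26 and in the libraries labelled siSlc25a26 PE, and none of the 10 at 0 in any of the 12 libraries. The part of this response in the results on the transcription factors was not tested.

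The labelled cell type was then checked against marker genes. Of 10 cardiomyocyte markers 9 were in the table, all above 0 in the 12 libraries, with Tnnt2 (cardiac troponin T) the most abundant. Their summed FPKM was 8562, 9188 and 8975 in siNeg, 11478, 11074 and 11029 in siNeg PE, 8279, 8781 and 9348 in siSlc25a26, and 11485, 10981 and 10473 in the libraries labelled siSlc25a26 PE. Fibroblast markers, led by Col1a1 and all 10 above 0, summed to 4840, 4478 and 4481 FPKM in siNeg, 2477, 2522 and 2498 in siNeg PE, 2964, 2657 and 2749 in siSlc25a26, and 1627, 1714 and 1847 in the libraries labelled siSlc25a26 PE. The fibroblast sum was thus highest in siNeg and lowest in the libraries labelled siSlc25a26 PE. Its fall from siNeg to siNeg PE was carried by the collagen genes Col1a1 (mean 2378 to 1201 FPKM), Col3a1 (1278 to 520) and Col1a2 (417 to 232). Postn (315 to 339), Dcn (67.5 to 78.9) and Pdgfra (10.8 to 13.5) were higher in siNeg PE. Tcf21 (31.3 to 19.3), Fbln1 (46.1 to 41.9), Ddr2 (20.9 to 17.0) and Lum (36.5 to 36.3) were lower. The cardiomyocyte sum was higher with PE than without it in each siRNA group.

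Other cell types left smaller traces. Macrophage markers, led by Lyz2, summed to 109, 113 and 92.9 FPKM in siNeg, 53.4, 57.3 and 50.6 in siNeg PE, 51.4, 60.4 and 55.1 in siSlc25a26, and 31.6, 37.9 and 33.6 in the libraries labelled siSlc25a26 PE. Mural cell markers, led by Mcam, summed to 269, 252 and 259 FPKM in siNeg, 236, 240.3 and 224 in siNeg PE, 229, 218 and 225 in siSlc25a26, and 282, 285 and 291 in the libraries labelled siSlc25a26 PE. The macrophage sum, like the fibroblast sum, was highest in siNeg, whereas the mural sum was highest in the libraries labelled siSlc25a26 PE. That sum was carried by Mcam (mean 151 FPKM against 92.2 in siNeg) and Cspg4 (50.5 against 25.8), while Myh11 (2.69 against 9.43), Notch3 (5.77 against 17.0), Pdgfrb (54.7 against 84.1) and Abcc9 (18.9 against 29.4) were lower there than in siNeg. Epicardial markers, led by Aldh1a2, summed to 38.5, 37.3 and 33.1 FPKM in siNeg, 21.99, 25.03 and 21.5 in siNeg PE, 27.4, 22.7 and 26.0 in siSlc25a26, and 13.1, 12.2 and 13.8 in the libraries labelled siSlc25a26 PE. Endothelial markers, led by Esam in siNeg and by Tek in the other groups, summed to 12.3, 12.6 and 10.7 FPKM in siNeg, 9.62, 8.95 and 8.94 in siNeg PE, 9.95, 10.5 and 10.1 in siSlc25a26, and 8.78, 9 and 9.35 in the libraries labelled siSlc25a26 PE, and up to 2 of the 10 endothelial markers were at 0 in a library. In bulk RNA, fewer cells of a type and less RNA per cell cannot be told apart, and the part of these markers in the results on the transcription factors was not tested.

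Promoters of 7 of the 10 genes were matched by symbol in a RefSeq table of build GRCr8. The 250 bases upstream of the start of transcription are shown for the genes that passed the test in the same comparisons: Srf and Gata6, which changed between the libraries labelled siSlc25a26 PE and both siNeg PE and siSlc25a26 and in the difference between PE effects, and Tbx20, Mef2d and Tbx5, which changed with PE in each siRNA group. The count tables were made on Rnor_6.0, and the coordinates belong to the GRCr8 sequences alone. Capitals mark motif matches, and the 250-base windows lie at chr9:21923826-21924075 on the plus strand (Srf), chr18:2460659-2460908 on the plus strand (Gata6), chr8:31534010-31534259 on the minus strand (Tbx20), chr2:175904082-175904331 on the plus strand (Mef2d) and chr12:42395360-42395609 on the minus strand (Tbx5).
Srf: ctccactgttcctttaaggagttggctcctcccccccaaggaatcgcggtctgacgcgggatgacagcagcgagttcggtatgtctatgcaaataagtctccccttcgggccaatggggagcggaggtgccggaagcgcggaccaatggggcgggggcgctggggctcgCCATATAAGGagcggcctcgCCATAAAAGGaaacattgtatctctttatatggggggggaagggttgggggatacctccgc
Gata6: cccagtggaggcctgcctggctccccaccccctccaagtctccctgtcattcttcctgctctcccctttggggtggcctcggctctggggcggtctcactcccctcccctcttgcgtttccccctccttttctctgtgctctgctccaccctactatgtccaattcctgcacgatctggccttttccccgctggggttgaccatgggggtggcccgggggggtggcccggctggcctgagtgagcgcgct
Tbx20: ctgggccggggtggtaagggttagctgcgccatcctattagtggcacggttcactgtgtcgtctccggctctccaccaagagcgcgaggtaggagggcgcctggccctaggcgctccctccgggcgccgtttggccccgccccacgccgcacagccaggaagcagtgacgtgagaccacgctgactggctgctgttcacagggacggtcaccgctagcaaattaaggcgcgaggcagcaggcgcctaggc
Mef2d: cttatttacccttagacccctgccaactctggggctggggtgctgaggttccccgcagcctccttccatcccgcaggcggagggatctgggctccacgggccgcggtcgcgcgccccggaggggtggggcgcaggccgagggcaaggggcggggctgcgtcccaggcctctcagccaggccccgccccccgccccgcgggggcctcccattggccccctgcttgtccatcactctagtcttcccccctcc
Tbx5: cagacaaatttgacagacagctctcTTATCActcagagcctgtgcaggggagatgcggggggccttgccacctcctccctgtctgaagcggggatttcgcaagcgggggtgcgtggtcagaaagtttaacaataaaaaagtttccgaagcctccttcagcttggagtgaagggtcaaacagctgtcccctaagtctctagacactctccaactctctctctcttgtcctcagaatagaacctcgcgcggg

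Both strands were searched for the CArG box, the MEF2 site, the GATA words (AGATAA or AGATAG, and TGATAA or TGATAG), the word CAAGTG bound by NKX2-5 and the word AGGTGT bound by T-box factors. The Srf promoter held 2 CArG boxes, CCATATAAGG at 81 to 72 bases and CCATAAAAGG at 61 to 52 bases before the start, and 1.5% of 33469 promoters of the same length held at least 1. A GATA word stood 225 to 220 bases before the start of Tbx5 on the opposite strand (27% of promoters), and in the Mef2a promoter, which is not shown, a MEF2 site stood 40 to 31 bases before the start (2.96%). The words CAAGTG (11.7% of promoters) and AGGTGT (11.6%) were in none of the 7 promoters, and no match overlapped another motif. Gata6, Mef2d, Tbx20 and Nkx2-5 had no match in this window. A match is a description of the letters and not a site or a cause.

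Levels between genes were compared as FPKM, fragments scaled to transcript length and library size, as deposited. In siNeg the highest level was that of Nkx2-5 (192 ± 4.34 FPKM, mean ± SD, n = 3), followed by Gata4 (114 ± 3.26 FPKM), and neither range overlapped a neighbour. Mef2d (62.5 ± 2.33 FPKM), Srf (58.3 ± 4.11 FPKM) and Mef2a (53.4 ± 12.5 FPKM) followed and overlapped among themselves, and Gata6 (47.4 ± 1.46 FPKM) lay within the wide range of Mef2a, 41.5 to 66.4 FPKM, but below Srf and Mef2d. Below them came Tbx20 (32.9 ± 5.23 FPKM), Tbx5 (12.1 ± 0.267 FPKM), Mef2c (7.33 ± 1.11 FPKM) and Myocd (4.96 ± 0.499 FPKM), whose ranges did not overlap a neighbour's. Thus the homeobox factor and GATA4 led the list, and the coactivator myocardin had the lowest level per length. Under PE the low end of the order differed. In the libraries labelled siSlc25a26 PE, Myocd reached 13.8 ± 1.39 FPKM, above Mef2c (9.94 ± 1.41 FPKM) and Tbx5 (7.67 ± 0.410 FPKM), while Nkx2-5 stayed at the top with 202 ± 26.6 FPKM.

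**Figure D1:**
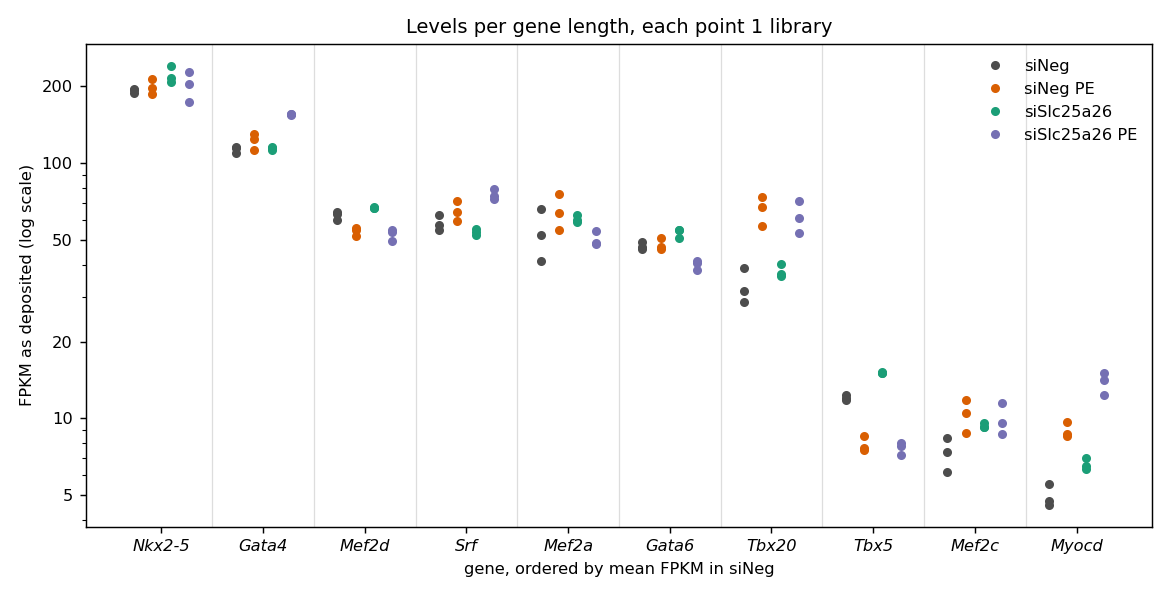
FPKM as deposited (log scale) of the 10 genes, ordered by their mean in siNeg, with each point 1 library coloured by group. Nkx2-5 and Gata4 lie highest, and Myocd lies lowest in siNeg but above Tbx5 in the libraries labelled siSlc25a26 PE.

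Srf (NCBI Gene 501099), whose promoter with 2 CArG boxes is printed above, encodes serum response factor. It stood at 246, 223 and 215 CPM in siNeg, 291, 264 and 236 in siNeg PE, 206, 199 and 213 in siSlc25a26, and 345, 317 and 307 in the libraries labelled siSlc25a26 PE. The latter lay above the libraries of every other group, and siSlc25a26 lay below siNeg, although siNeg and siNeg PE overlapped. PE raised Srf in siSlc25a26 (log2 fold change 0.66, SE 0.0560, edgeR adjusted p = 1.82e-05), and the libraries labelled siSlc25a26 PE exceeded siNeg PE (0.28, SE 0.0880, edgeR adjusted p = 0.0307). PE in siNeg gave 0.20 (edgeR adjusted p = 0.0796) and siSlc25a26 without PE gave -0.17 (edgeR adjusted p = 0.0507), which did not pass. The PE effect was larger by 0.44 in siSlc25a26 than in siNeg (SE 0.109, edgeR adjusted p = 0.0234). The call under PE was lost when siNeg PE 2 (edgeR adjusted p = 0.0959), siNeg PE 3 (0.0794, log2 fold change 0.19), or the libraries labelled siSlc25a26 PE 1 (0.0715) or 2 (0.0689) were left out, and that of the difference without siNeg 1 (0.0594), siNeg PE 2 (0.0515), siSlc25a26 2 (0.0559) or the library labelled siSlc25a26 PE 2 (0.0504). Conversely, Srf passed for PE in siNeg without siNeg 1 (edgeR adjusted p = 0.0488) or siNeg PE 3 (0.0294) and when all 12 libraries shared a fit (0.0362), but gave 0.13 without siNeg PE 1 (0.242). It also passed there with the replicate number as a block (edgeR adjusted p = 0.00156). Without PE it passed without siNeg 3 (edgeR adjusted p = 0.0111), in DESeq2 (0.0323), with DESeq2's size factors in edgeR (0.0468) and with a filter of 10 counts in every library (0.0473).

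Myocd (NCBI Gene 246297) encodes myocardin, the coactivator of SRF in heart and smooth muscle. It stood at 31.8, 29.8 and 36.0 CPM in siNeg, 58.2, 63.9 and 56.4 in siNeg PE, 43.8, 41.1 and 40.7 in siSlc25a26, and 86.3, 101 and 96.7 in the libraries labelled siSlc25a26 PE. No groups overlapped, and the order from low to high was siNeg, siSlc25a26, siNeg PE and the libraries labelled siSlc25a26 PE. PE raised Myocd in siNeg (log2 fold change 0.86, SE 0.0841, edgeR adjusted p = 0.00015) and in siSlc25a26 (1.19, SE 0.0709, edgeR adjusted p = 2.13e-06). It was higher in siSlc25a26 than in siNeg without PE (0.34, SE 0.0759, edgeR adjusted p = 0.00635) and in the libraries labelled siSlc25a26 PE than in siNeg PE (0.66, SE 0.0818, edgeR adjusted p = 0.000318). Each of these 4 calls kept an edgeR, DESeq2 or limma adjusted p under 0.05 in the 15 alternatives run, 6 of which left out a library. The difference between PE effects was 0.31 (edgeR adjusted p = 0.111) and did not pass. The ratio of Srf to Myocd in FPKM was 11.9 ± 1.71 in siNeg, 7.26 ± 0.868 in siNeg PE, 8.16 ± 0.526 in siSlc25a26 and 5.51 ± 0.812 in the libraries labelled siSlc25a26 PE (mean ± SD, n = 3). The ratio was thus highest in siNeg, and its ranges overlapped between siNeg PE and siSlc25a26.

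Gata4 (NCBI Gene 54254) encodes a zinc finger factor that is active early in heart development and in hypertrophic growth. Its 3 libraries per group stood at 370, 349 and 366 CPM in siNeg, 437, 413 and 365 in siNeg PE, 361, 348 and 361 in siSlc25a26, and 552, 536 and 539 in the libraries labelled siSlc25a26 PE. The libraries labelled siSlc25a26 PE were above those of the other groups, and siNeg overlapped siNeg PE and siSlc25a26. PE raised Gata4 in siSlc25a26 (log2 fold change 0.61, SE 0.0443, edgeR adjusted p = 6.66e-06) and not detectably in siNeg (0.15, SE 0.0669, edgeR adjusted p = 0.0943). The effects differed by 0.44 (SE 0.0847, edgeR adjusted p = 0.00588). The libraries labelled siSlc25a26 PE exceeded siNeg PE (0.41, SE 0.0776, edgeR adjusted p = 0.00305), whereas without PE the value was -0.05 (edgeR adjusted p = 0.459). These 3 calls passed at the same adjusted p in each alternative run, but Gata4 also passed for PE in siNeg without siNeg PE 3 (0.21, edgeR adjusted p = 0.0224) and when all 12 libraries shared a fit (0.0361). It passed there with the replicate number as a block too (edgeR adjusted p = 0.0239).

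Gata6 (NCBI Gene 29300), another GATA factor of the heart, had its lowest level where Gata4 had its highest. It stood at 136, 133 and 142 CPM in siNeg, 143, 139 and 150 in siNeg PE, 144, 154 and 156 in siSlc25a26, and 133, 128 and 120 in the libraries labelled siSlc25a26 PE. The last group lay below the libraries of every other group, and siNeg PE overlapped siNeg and siSlc25a26. PE lowered Gata6 in siSlc25a26 (log2 fold change -0.24, SE 0.0558, edgeR adjusted p = 0.00613) and gave 0.06 in siNeg (edgeR adjusted p = 0.397), and the effects differed by -0.32 (SE 0.0766, edgeR adjusted p = 0.0192). Under PE it was lower in the libraries labelled siSlc25a26 PE (-0.19, SE 0.0607, edgeR adjusted p = 0.0341), and without PE the value was 0.12 (edgeR adjusted p = 0.0912), which passed on the FPKM scale (limma on log2(FPKM + 1), adjusted p = 0.0212). The call under PE was lost without siNeg PE 1 (edgeR adjusted p = 0.0901), 2 (0.0570) or 3 (0.0525) or the libraries labelled siSlc25a26 PE 2 (0.131) or 3 (0.117), and that of the difference without siNeg PE 3 (0.0525) or siSlc25a26 2 (0.0502). The deposited counts of Gata6 were not whole numbers in any of the 12 libraries, so its reads may be shared with another entry and its level is uncertain, whereas those of the other 9 genes were whole. The ratio of Gata4 to Gata6 in FPKM was 2.40 ± 0.0679 in siNeg, 2.56 ± 0.302 in siNeg PE, 2.14 ± 0.115 in siSlc25a26 and 3.88 ± 0.169 in the libraries labelled siSlc25a26 PE, which lay above the other groups (mean ± SD, n = 3).

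Mef2c (NCBI Gene 499497) is the MEF2 gene of early heart muscle. Its level was 37.7, 45.1 and 51.3 CPM in siNeg, 56.1, 66.8 and 73.5 in siNeg PE, 54.9, 57.3 and 55.8 in siSlc25a26, and 59.1, 64.1 and 75.8 in the libraries labelled siSlc25a26 PE. The siNeg libraries were the lowest, and the PE groups overlapped. PE raised Mef2c in siNeg (log2 fold change 0.54, SE 0.132, edgeR adjusted p = 0.0103), which passed at the same adjusted p in each alternative run, and in siSlc25a26 (0.25, SE 0.0903, edgeR adjusted p = 0.0404). Without PE it was higher in siSlc25a26 (0.30, SE 0.0966, edgeR adjusted p = 0.0315), and under PE the value was 0.01 (edgeR adjusted p = 0.946). The effects of PE differed by -0.31 (edgeR adjusted p = 0.279), which did not pass. The rise without PE was 0.19 without siNeg 1 and did not pass without siNeg 2 (edgeR adjusted p = 0.0648) or siSlc25a26 1 (0.0675), 2 (0.0909) or 3 (0.0741). The rise with PE in siSlc25a26 did not pass without siSlc25a26 1 (edgeR adjusted p = 0.125), 2 (0.0878) or 3 (0.0980), without the libraries labelled siSlc25a26 PE 2 (0.0660) or 3 (0.0695, log2 fold change 0.14), when all 12 libraries shared a fit (0.111), or on the FPKM scale (0.07, limma on log2(FPKM + 1), adjusted p = 0.568). This rise was also lost with the replicate number as a block (edgeR adjusted p = 0.0516).

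Mef2a and Mef2d encode the MEF2 proteins of postnatal muscle. Mef2a (NCBI Gene 309957) stood at 188, 222 and 284 CPM in siNeg, 249, 285 and 336 in siNeg PE, 252, 255 and 266 in siSlc25a26, and 224, 229 and 251 in the libraries labelled siSlc25a26 PE. Mef2d (NCBI Gene 81518) stood at 270, 249 and 267 CPM in siNeg, 238, 219 and 231 in siNeg PE, 258, 271 and 271 in siSlc25a26, and 234, 216 and 207 in the libraries labelled siSlc25a26 PE. The siNeg libraries of Mef2a spread widely and overlapped every other group, whereas the PE groups of Mef2d lay below both groups without PE. PE lowered Mef2d in siNeg (log2 fold change -0.21, SE 0.0571, edgeR adjusted p = 0.0178) and in siSlc25a26 (-0.28, SE 0.0552, edgeR adjusted p = 0.00281), but the call in siNeg was lost without siNeg 1 (edgeR adjusted p = 0.0699) or siNeg PE 2 (0.0895). Mef2a was lower in the libraries labelled siSlc25a26 PE than in siNeg PE (-0.31, SE 0.101, edgeR adjusted p = 0.0350), although their ranges overlapped, and the call was lost without siNeg PE 2 (0.0789) or 3 (0.0756), without the libraries labelled siSlc25a26 PE 1 (0.0987) or 2 (0.129), and when all 12 libraries shared a fit (0.0736). PE gave 0.32 for Mef2a in siNeg (edgeR adjusted p = 0.125) and -0.13 in siSlc25a26 (0.102), with a difference of -0.46 (edgeR adjusted p = 0.128). These passed without siNeg 3 (0.48, edgeR adjusted p = 0.0171) or siNeg PE 1 (0.0476) in siNeg, without the library labelled siSlc25a26 PE 3 (0.0131) or on the FPKM scale (limma on log2(FPKM + 1), adjusted p = 0.00506) in siSlc25a26, and without siNeg 3 (0.0162) for the difference. With the replicate number as a block, PE in siNeg (edgeR adjusted p = 9.33e-05) and the difference (0.0195) passed as well. In the opposite direction, the value in siNeg was 0.19 without siNeg PE 3 (edgeR adjusted p = 0.346). Without PE, Mef2a gave 0.13 and passed without siNeg 3 (0.28, edgeR adjusted p = 0.00964), but gave 0.00 without siNeg 1 (0.989).

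The 3 MEF2 genes together summed to 123 FPKM in siNeg, 129 in siNeg PE, 137 in siSlc25a26 and 113 in the libraries labelled siSlc25a26 PE (means, n = 3). Mef2c took 5.94% ± 0.357 of the sum in siNeg, 8.01% ± 0.513 in siNeg PE, 6.86% ± 0.204 in siSlc25a26 and 8.78% ± 1.08 in the libraries labelled siSlc25a26 PE (SD, n = 3). Mef2d, in contrast, took 51.1% in siNeg, 42.2% in siNeg PE, 49.0% in siSlc25a26 and 46.7% in the libraries labelled siSlc25a26 PE, and Mef2a the rest. Mef2c was thus the smallest part in all 4 groups, and its share was higher with PE than without it.

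Tbx5 and Tbx20 are T-box factors with opposite responses to PE. Tbx5 (NCBI Gene 304514) stood at 31.8, 31.5 and 33.9 CPM in siNeg, 22.5, 22.01 and 24.7 in siNeg PE, 39.0, 41.2 and 39.5 in siSlc25a26, and 25.9, 25.1 and 20.6 in the libraries labelled siSlc25a26 PE. Tbx20 (NCBI Gene 315497) stood at 91.8, 101 and 125 CPM in siNeg, 193, 226 and 241 in siNeg PE, 126, 113 and 116 in siSlc25a26, and 190, 215 and 247 in the libraries labelled siSlc25a26 PE. For each gene the groups with and without PE did not overlap, while the PE groups overlapped each other. PE lowered Tbx5 in siNeg (log2 fold change -0.50, SE 0.0757, edgeR adjusted p = 0.00115) and in siSlc25a26 (-0.73, SE 0.0857, edgeR adjusted p = 0.000127). PE raised Tbx20 in siNeg (1.05, SE 0.123, edgeR adjusted p = 0.000356) and in siSlc25a26 (0.89, SE 0.0934, edgeR adjusted p = 6.6e-05). Without PE, Tbx5 was higher in siSlc25a26 (0.27, SE 0.0590, edgeR adjusted p = 0.00538), and Tbx20 gave 0.14, which passed without siNeg 3 (0.24, edgeR adjusted p = 0.0122) but was 0.04 without siNeg 1 (0.719). These 5 calls passed at the same adjusted p in each alternative run. The difference between PE effects was -0.25 for Tbx5 (edgeR adjusted p = 0.194), which passed on the FPKM scale (limma on log2(FPKM + 1), -0.33, adjusted p = 0.0211), and -0.18 for Tbx20. With a library left out, this difference ranged from -0.31 to -0.16 for Tbx5 and from -0.32 to -0.09 for Tbx20. The ratio of Tbx20 to Tbx5 in FPKM was 2.72 ± 0.384 in siNeg, 8.33 ± 0.695 in siNeg PE, 2.50 ± 0.157 in siSlc25a26 and 8.10 ± 1.56 in the libraries labelled siSlc25a26 PE (mean ± SD, n = 3).

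Nkx2-5 (NCBI Gene 114109), the homeobox factor of the cardiac lineage, did not pass in any of the 5 edgeR tests. It stood at 231, 238 and 241 CPM in siNeg, 276, 241 and 246 in siNeg PE, 259, 249 and 291 in siSlc25a26, and 310, 275 and 231 in the libraries labelled siSlc25a26 PE. The siSlc25a26 libraries lay above siNeg without overlap, and the other comparisons overlapped. The log2 fold change was 0.09 for PE in siNeg, 0.14 in siSlc25a26 without PE (edgeR adjusted p = 0.0987), 0.09 in the libraries labelled siSlc25a26 PE, 0.04 for PE in siSlc25a26 and -0.07 for the difference. Only the comparison without PE passed in an alternative, limma on log2(FPKM + 1) (0.20, adjusted p = 0.0258) and on log2(FPKM + 0.1) (0.20, adjusted p = 0.0263). For PE in siSlc25a26 the sign turned on the FPKM scale (-0.14), without the library labelled siSlc25a26 PE 1 (-0.06) and without siSlc25a26 2 (-0.01), and under PE it turned without the library labelled siSlc25a26 PE 1 (-0.01). The sign of the difference turned as well, with values from -0.18 to 0.03 when a library was left out. In the same way the value for PE in siNeg ranged from 0.04 to 0.14 and that without PE from 0.07 to 0.19.

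**Figure D2:**
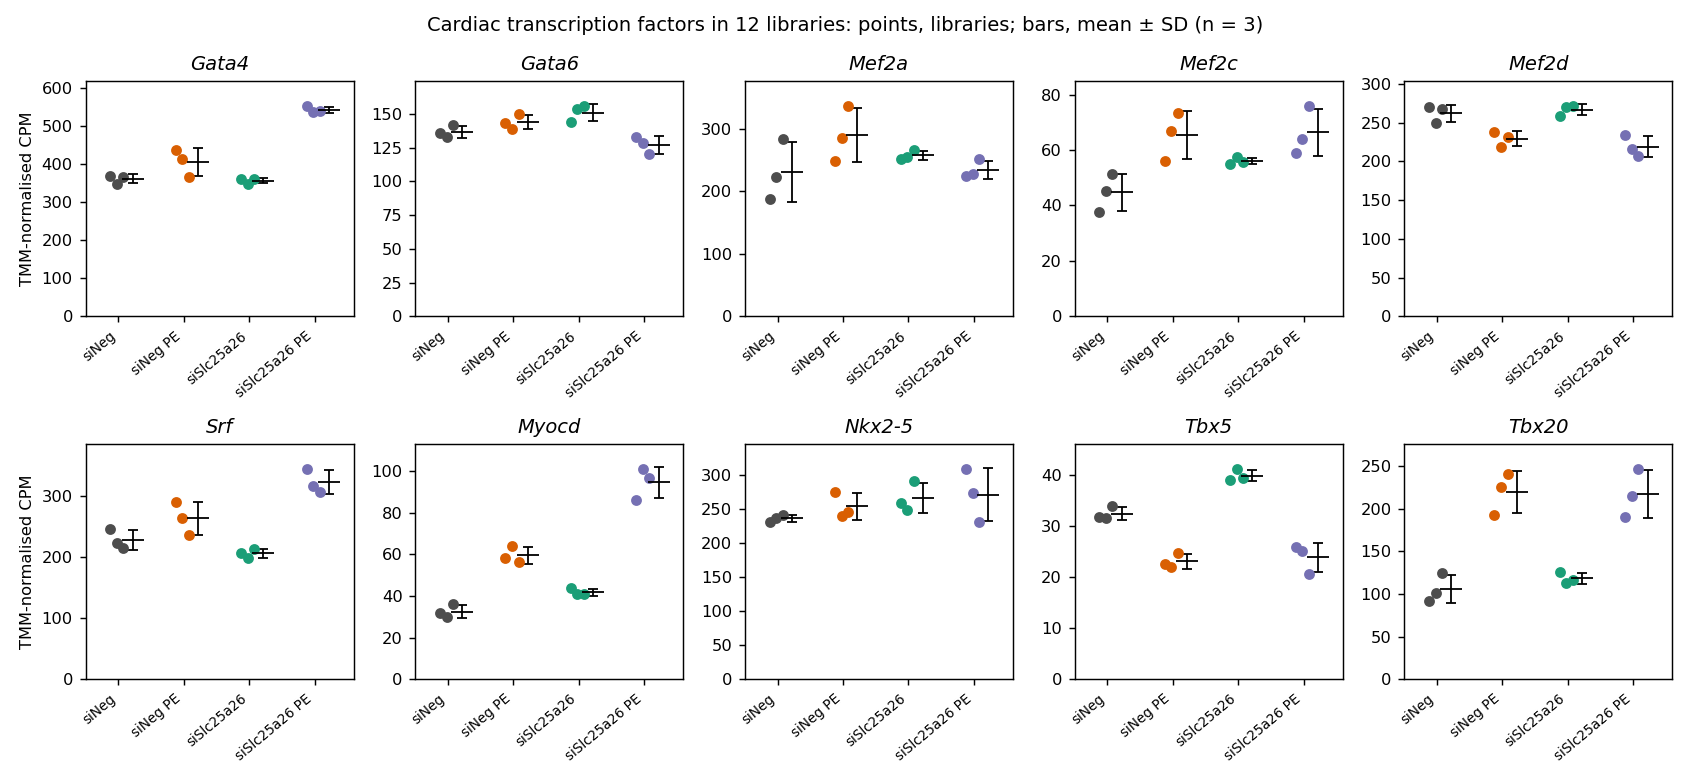
CPM scaled with TMM factors for each of the 10 genes, with points for the 12 libraries and bars for the mean ± SD of 3 libraries per group. Tbx20 and Myocd are higher and Tbx5 is lower in the PE groups, and Gata4 and Srf are highest in the libraries labelled siSlc25a26 PE.

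The comparison of siNeg PE with siNeg asked how PE alone moved these factors. Mef2c, Myocd and Tbx20 rose, and Mef2d and Tbx5 fell. In edgeR, 3 of 10 genes were higher against 25.2% of the 13719 genes tested, and 2 of 10 were lower against 24.3%. With a fold change over 1.5 as well, the threshold of the study, 2 of 10 (Myocd and Tbx20) passed against 20.7% of all genes. These shares were near the background and are not a result about the factors as a group. Their count was 4 without siNeg PE 2 and 7 without siNeg PE 3.

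Without PE, siSlc25a26 was compared with siNeg to ask what the siRNA did to resting cells. Mef2c, Myocd and Tbx5 rose, each by less than 1.5-fold. In edgeR, 3 of 10 genes were higher against 23.3% of 13829 genes. For lower levels edgeR gave 0 of 10 against 21.7% of all genes, 1 of 10 (Srf) at an unadjusted p under 0.05, and DESeq2 gave 1 (Srf). For a fold change over 1.5 edgeR gave 0 of 10 against 16.1% of all genes at an adjusted p under 0.05, and also 0 of 10 at an unadjusted p under 0.05. The share that rose was near the background. Of all genes that changed, 51.8% were higher by edgeR and 61.1% by limma on log2(FPKM + 1). The count of changed factors was 6 without siNeg 3 and 2 without siNeg 2 or without siSlc25a26 1, 2 or 3. This comparison and PE in siNeg share the siNeg libraries.

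Under PE, the libraries labelled siSlc25a26 PE were compared with siNeg PE to ask whether the siRNA altered the PE state. Gata4, Srf and Myocd were higher, and Gata6 and Mef2a were lower. In edgeR, 3 of 10 genes were higher against 20.1% of 13671 genes and 2 of 10 were lower, also against 20.1%. Only Myocd exceeded a fold change of 1.5 in edgeR, 1 of 10 against 15.8% of all genes. The shares were near the background. Of all genes that changed, 50% were higher by edgeR and 38.3% by limma on log2(FPKM + 1). The count of changed factors was 2 without siNeg PE 2 or 3 or the library labelled siSlc25a26 PE 2, and 3 without the library labelled siSlc25a26 PE 1. Leaving out siNeg PE 1 or the library labelled siSlc25a26 PE 3 gave 4.

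Within siSlc25a26, the libraries labelled siSlc25a26 PE were compared with those without PE. Gata4, Mef2c, Srf, Myocd and Tbx20 rose, and Gata6, Mef2d and Tbx5 fell. In edgeR, 5 of 10 genes were higher against 26.4% of 13776 genes, and 3 of 10 were lower against 26.0%. With a fold change over 1.5, 5 of 10 (Gata4, Srf, Myocd, Tbx20 and Tbx5) passed against 20.5% of all genes. The shares for higher levels and for the fold threshold were above the background, but the list holds 10 genes and no test of it was made. On the FPKM scale the log2 fold changes over all genes had a median of -0.17 here, and those of the difference between PE effects a median of -0.14, against values of 0.00 and -0.05 with TMM scaling, so values on that scale sit lower by about this shift. Of all genes that changed, 50.3% were higher by edgeR and 26.3% by limma on log2(FPKM + 1). Of the 10 genes, 5 kept the same highest and lowest group on the FPKM scale and 8 kept them with DESeq2's size factors.

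The difference between the PE effects, fitted on all 12 libraries, asked whether PE acted differently after siSlc25a26. The PE effect was more positive for Gata4 and Srf, and more negative for Gata6, in siSlc25a26. In edgeR, 2 of 10 genes had a higher PE effect against 5.48% of 14097 genes and 1 of 10 a lower PE effect against 5.73%. For a difference over 1.5-fold edgeR gave 0 of 10 against 5.50% of all genes at an adjusted p under 0.05, and also 0 of 10 at an unadjusted p under 0.05. At an unadjusted p without a fold threshold Mef2a and Myocd were added. DESeq2 and limma-voom also called 3 of the 10. Of all genes that changed, the PE effect was higher for 48.9% by edgeR and 24.1% by limma on log2(FPKM + 1). The count was 1 without siSlc25a26 2 and 4 without siNeg 3. Slc25a26 itself did not differ detectably between the libraries labelled siSlc25a26 PE and siNeg PE, so these directions are between libraries as labelled. PE raised Slc25a26 in siNeg (log2 fold change 1.69) and in siSlc25a26 (2.77), and these effects differed by 1.06 (edgeR adjusted p = 0.000466).

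**Figure D3:**
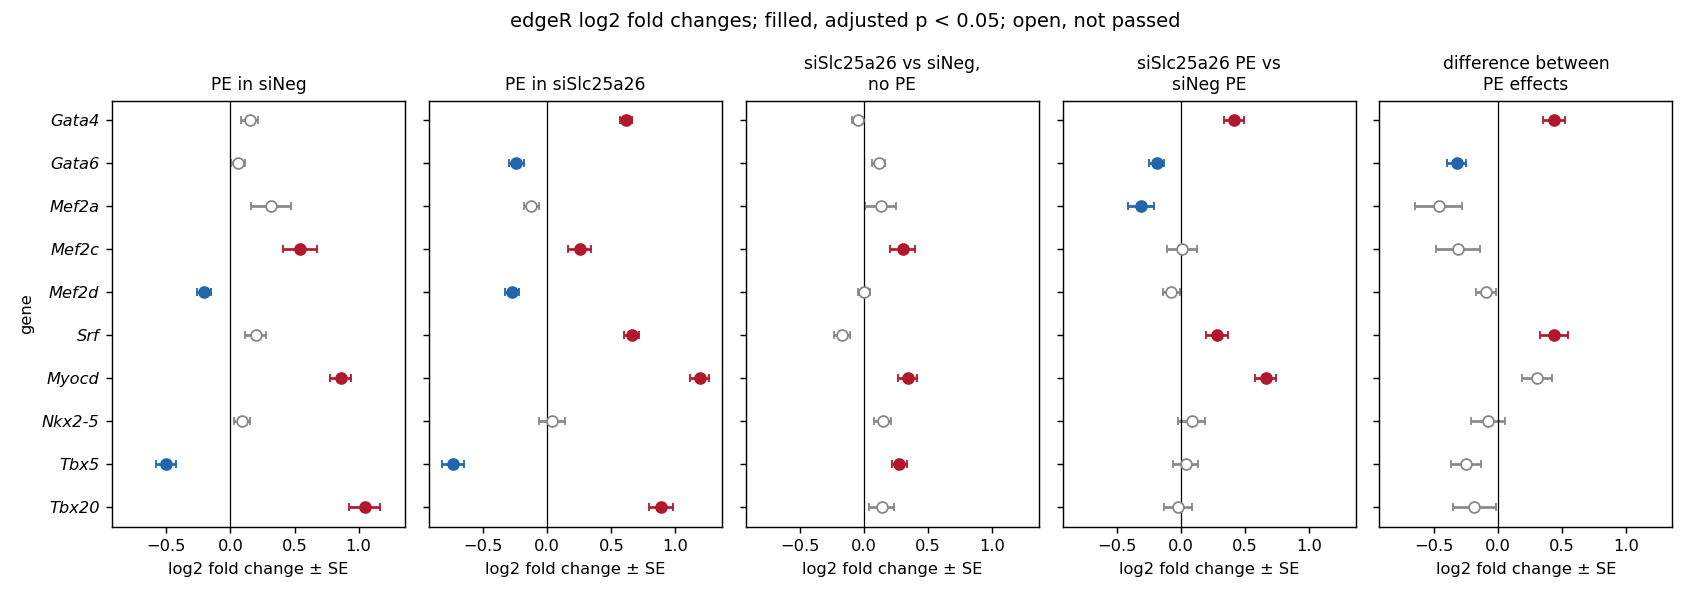
Log2 fold changes with SE from edgeR for the 10 genes in the 5 comparisons, with filled points at an adjusted p under 0.05 and open points for values that did not pass. Myocd lies to the right in the 4 comparisons of groups, and Gata4 and Srf lie to the right and Gata6 to the left in the difference between PE effects.

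Over the 12 libraries the factors varied in partial accord, as Pearson correlations of log2 CPM (n = 12 libraries, which share groups of 3, depth and scaling). Gata4 and Srf had r = 0.947, Gata4 and Myocd 0.913, Mef2d and Tbx5 0.899, Mef2c and Tbx20 0.881, and Myocd and Tbx20 0.879. The most negative values were those of Mef2d and Tbx20 (-0.901), Mef2d and Myocd (-0.861), Tbx5 and Tbx20 (-0.847), Srf and Tbx5 (-0.808) and Gata4 and Mef2d (-0.767), and Gata4 and Gata6 had -0.729. Because the groups form clusters, these values describe the groups as much as single libraries.

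Among 12754 genes with a mean of at least 1 CPM, those with the profile most like each factor over the 12 libraries were listed by Pearson's r. Gata4 was most like Dnaja4 (0.989), Ckap4 (0.987) and Ankrd23 (0.986), and Srf most like Csrp1 (0.980), Smarcd3 (0.979) and Dapk3 (0.974). Myocd was most like RGD1565616 (0.994), Arhgap24 (0.993) and Slc38a1 (0.992), and Gata6 most like Pcnx1 (0.946), Klhdc10 (0.936) and Cbx6 (0.933). All of these are r values over the same libraries as above. Mef2a was most like Sowahc (0.949), Rsbn1l (0.948) and Zfp106 (0.948), Mef2c most like Sf3b1 (0.994), Cul3 (0.994) and Stag1 (0.990), and Mef2d most like Asb6 (0.981), Zfp219 (0.974) and Entpd6 (0.972). Stat5a (0.987) and Ap5z1 (0.985) were among the genes most like Tbx5, and Tbx20 was most like Ctnna3 (0.993), Arpp19 (0.992) and Dcbld2 (0.989) and Nkx2-5 most like Cdk2ap1 (0.913), Plekho1 (0.905) and Tmem132a (0.904). Nkx2-5, which differed least between groups, had the lowest values.

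Genes known to be driven by SRF with myocardin-related coactivators, 14 cytoskeletal and smooth muscle genes, were measured beside Srf. In siSlc25a26 without PE, 13 of 14 fell and their median log2 fold change was -0.88, beside 0.01 for all genes, with Tagln at -1.12, Myh11 at -1.42 and Cnn1, a calponin, at -1.18. PE in siNeg raised 4 and lowered 8 of them (median -0.76 beside 0.00), with Fhl1 at 2.46 and Cnn1 at 1.58 among the former and Lmod1 at -1.43 among the latter. PE in siSlc25a26 raised 5 and lowered 6 (median -0.12 beside 0.00), with Fhl1 at 3.89, Cnn1 at 3.35 and the myosin light chain Myl9 at 1.36. Under PE, the libraries labelled siSlc25a26 PE were higher for 2 and lower for 7 (median -0.22 beside 0.00), with Fhl1 at 1.14 and Myh11 at -0.92. The higher count reached 4 under an alternative and 3 with a library left out. Among genes not called in edgeR, Actb (0.21) passed in DESeq2, limma-voom and the shared fit, and Tpm1 with the replicate block. In siSlc25a26 the PE effect was more positive than in siNeg for 9 of 14 (median 0.49 beside -0.05), with Cnn1 at 1.75 (edgeR adjusted p = 6.75e-05), Fhl1 at 1.40 and Myl9 at 0.76. Leaving out a library moved the count of 9 between 7 and 11, by less than 1.5-fold. Without PE, markers of other cells fell as well in siSlc25a26. Among them were 7 of 10 fibroblast markers (median -0.66), 6 of 9 macrophage markers (-0.88) and 5 of 8 mural markers (-0.30, and 3 without siSlc25a26 2). Of 6 epicardial markers, 4 fell and 1 rose (-0.57, and 2 fell without siSlc25a26 2). The part of these markers in the fall of the targets was not tested. With PE in siNeg, 7 of 9 macrophage markers fell (-0.95). There 4 of 8 mural markers (-0.23) and 4 of 10 fibroblast markers (-0.06) fell too, while 2 of each rose. Under PE, 8 of 10 fibroblast markers (-0.40) and 4 of 6 epicardial markers (-1.23) were lower in the libraries labelled siSlc25a26 PE. In the difference between PE effects, 4 of 8 mural markers (0.53) and 3 of 9 macrophage markers (0.68) were higher, the latter count being 1 without siNeg 1 or 2, siNeg PE 2 or 3, siSlc25a26 1 or 2 or the library labelled siSlc25a26 PE 3. The part of these markers in the values of the targets was not tested either. The shares of all genes called, against which the counts of this and the other lists stand, were 25.2% higher and 24.3% lower for PE in siNeg, 23.3% and 21.7% without PE, 20.1% and 20.1% under PE, 26.4% and 26.0% for PE in siSlc25a26, and 5.48% and 5.73% for the difference. The actin genes of these lists (Acta1, Acta2, Actb, Actc1 and Actg2) are near-identical paralogs whose reads could be split, so their levels are uncertain, and Myh11 is also counted among the mural markers.

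Genes known to respond to SRF with ternary complex factors, 8 immediate early genes, were next. Per the labels PE was present for 36 h, so the values are levels at that time, and earlier responses to PE were not measured. PE in siNeg raised 6 of 8 (median 0.25 beside 0.00), with Egr2 at 1.88 and Fos at 1.09, but 3 of 8 without siNeg 2, siNeg 3 or siNeg PE 2 and on the FPKM scale. PE in siSlc25a26 raised 2 and lowered 1 (median 0.17 beside 0.00), with Egr2 at 1.48, Fos at 0.78 and Junb at -0.43, and on the FPKM scale 4 were lower. Under PE, 4 of 8 were lower in the libraries labelled siSlc25a26 PE (median -0.15 beside 0.00), with Egr2 at -0.90, Egr3 at -0.85 and Egr1 at -0.71. In siSlc25a26 without PE, 1 rose (Junb, 0.59) and 2 fell (median -0.20 beside 0.01), of which the fallen numbered 0 without siNeg 1 or siSlc25a26 1 or 3 and 1 without siNeg 2, and 2 rose without siNeg 1. The difference between PE effects was negative for 2 (median -0.38 beside -0.05), with Junb at -0.68, and for 1 without siNeg 2, siNeg PE 2, siSlc25a26 1 or 2, or the libraries labelled siSlc25a26 PE 1 or 2, but for 5 by limma on log2(FPKM + 1) and 4 on log2(FPKM + 0.1). On both FPKM scales 1 fell in siSlc25a26 without PE, and it was neither Egr1 nor Egr2, the 2 that fell in edgeR.

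Cardiac target genes, 27 genes for natriuretic peptides, contractile proteins, calcium handling and conduction, were measured beside the factors that bind them. PE in siNeg raised 14 and lowered 7 of 27 (median 0.41 beside 0.00), and PE in siSlc25a26 raised 16 and lowered 9 (median 0.39 beside 0.00). The natriuretic peptide genes Nppb (5.37 in siNeg and 5.32 in siSlc25a26) and Nppa (4.63 and 4.51) rose with PE in each siRNA group, as did Acta1 (3.18 and 5.15). Without PE, siSlc25a26 raised 10 and lowered 8 of 27 (beside 23.3% and 21.7% of all genes, median 0.02 beside 0.01), with Nppb at 1.97, Nppa at 1.14 and the connexin gene Gja5 at 1.13. Under PE, 11 were higher and 7 lower in the libraries labelled siSlc25a26 PE (median 0.04 beside 0.00), with Nppb at 1.91, Acta1 at 1.44 and Nppa at 1.02. Between siRNA groups the PE effect had a positive difference for 5 and a negative difference for 5 (median 0.05 beside -0.05), with Acta1 at 1.95, Actc1 at 0.92 and Gja5 at -1.03. The latter count was 3 without siNeg 1 or 2, siNeg PE 3, siSlc25a26 1 or 3, or the libraries labelled siSlc25a26 PE 2 or 3. Of the 27 genes, 4 (Myh6, Ryr2, Tnni3 and Tnnt2) also serve as cardiomyocyte markers, and reads of Myh6 and Myh7 could be split between these paralogs.

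**Figure D4:**
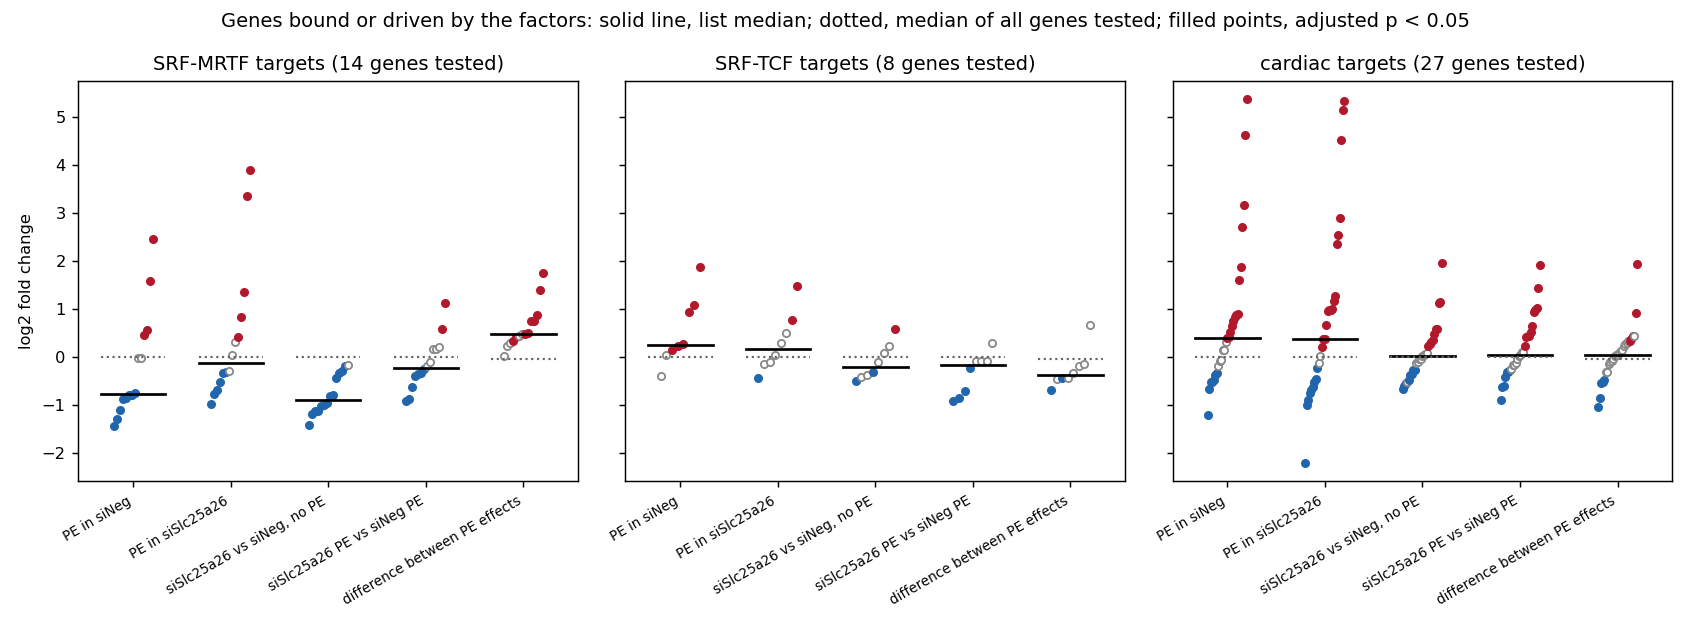
Log2 fold changes from edgeR of genes known to be driven by the factors, in 3 panels (14 SRF-MRTF targets, 8 SRF-TCF targets and 27 cardiac targets) and 5 comparisons, with filled points at an adjusted p under 0.05, a solid line for the median of the list and a dotted line for the median of all genes tested. SRF-MRTF targets have a median of -0.88 in siSlc25a26 without PE and of 0.49 in the difference between PE effects.

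Partner proteins of these factors, 19 coactivators, corepressors and DNA-binding factors of which 18 were tested (Isl1 was not), followed. PE in siNeg raised 2 and lowered 6 (median -0.13 beside 0.00), with Lmcd1, which encodes an inhibitor of GATA6, at 0.75. The deacetylase gene Hdac7 was at -0.68 and Fhl2 at -0.50. The call of Lmcd1 was lost without siNeg 2 (edgeR adjusted p = 0.0619) or siNeg PE 2 (0.0759). PE in siSlc25a26 raised 3 and lowered 8 (median -0.20 beside 0.00), with Lmcd1 at 2.39, Hopx, which encodes a homeodomain protein that restrains SRF, at -0.71 and Irx4 at -0.70. In siSlc25a26 without PE, 7 of 18 rose and 2 fell (beside 23.3% and 21.7% of all genes, median 0.05 beside 0.01), with Hand1 at 0.57, Wwtr1 at 0.53, Yap1 at 0.23 and Mrtfb at -0.48. The call of Hand1 was lost in DESeq2 (adjusted p = 0.102), with no filter (0.0549) and without siNeg 1 (log2 fold change 0.38), siNeg 2 (0.56) or siSlc25a26 1 (0.62), 2 (0.59) or 3 (0.50), and that of Mrtfb in DESeq2 (adjusted p = 0.102), by limma on log2(FPKM + 0.1) (0.0585), when all 12 libraries shared a fit (0.0681) and without siNeg 1 (log2 fold change -0.35) or siSlc25a26 1 (-0.52), 2 (-0.45) or 3 (-0.48). Under PE, 6 were higher and 3 lower in the libraries labelled siSlc25a26 PE (median 0.17 beside 0.00), with Lmcd1 at 1.42, Wwtr1 at 0.48 and Hopx at -0.63. The difference between PE effects was positive for 1 (Lmcd1, 1.61) and negative for 3 (median -0.06 beside -0.05), with Irx4 at -0.69. These counts moved with libraries left out: for PE in siNeg, 3 fell without siNeg 1, siNeg PE 1 or 2, 1 rose without siNeg 2 or siNeg PE 2 and 4 rose without siNeg 3. Without PE, 3 rose without siNeg 2 and 4 without siSlc25a26 1 or 3, while 1 fell without siNeg 1 or siSlc25a26 1, 2 or 3 and 4 fell without siNeg 3. Under PE, 2 were higher without siNeg PE 2 or the libraries labelled siSlc25a26 PE 1 or 2 and 3 without siNeg PE 3, and 1 was lower without the library labelled siSlc25a26 PE 2, while the difference was negative for 1 without siNeg PE 3. On the FPKM scale 2 were higher under PE, and without PE 1 fell in DESeq2, by limma on log2(FPKM + 0.1) and when all 12 libraries shared a fit.

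Relatives of the 10 factors in the GATA, MEF2, NKX2 and T-box families were mostly low. Of 11 relatives 9 were in the table and 6 were tested, and the highest was Gata5 with a mean of 28.1 FPKM over 12 libraries, below Gata4 and Gata6 but above Tbx5 (10.7 FPKM), Mef2c (9.26 FPKM) and Myocd (8.59 FPKM). The others had a mean of at most 3.18 FPKM (Tbx18). PE in siNeg lowered 4 of 6 (median -0.47 beside 0.00), with Gata3 at -1.63, Gata2 at -1.21 and Gata5 at -0.32. Gata2 lay near the floor, with group means of 0.64 to 1.61 CPM, and its value was as small as -0.32 in an alternative. The call of Tbx3 was lost in DESeq2 (adjusted p = 0.0592), by limma on log2(FPKM + 0.1) (0.0530), and without siNeg 1 (edgeR adjusted p = 0.111), siNeg 3 (0.0537) or siNeg PE 2 (0.112). PE in siSlc25a26 lowered 4 of 6 (median -0.43 beside 0.00), with Gata3 at -0.78 and Tbx2 at -0.50. In siSlc25a26 without PE 1 fell (Gata5, -0.26), and the median was -0.03 beside 0.01. Under PE 1 was higher in the libraries labelled siSlc25a26 PE (Gata3, 1.11, median 0.04 beside 0.00), and 1 (Gata5) was lower without the library labelled siSlc25a26 PE 1, on the FPKM scale, with a filter of 10 counts and when all 12 libraries shared a fit. Gata5 was also lower there with the replicate number as a block (edgeR adjusted p = 0.0114). The difference between PE effects was positive for 1 (Gata3, 0.82, median 0.19 beside -0.05), and this call was lost without siNeg PE 3 or the library labelled siSlc25a26 PE 2 and by limma on log2(FPKM + 1).

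The marker lists were tested in the same comparisons and stand here beside the factors. Cardiomyocyte markers (9 tested) rose in 6 and fell in 1 with PE in siNeg (median log2 fold change 0.41), rose in 8 with PE in siSlc25a26 (0.74, with 5 higher and 1 lower on the FPKM scale), rose in 1 and fell in 3 in siSlc25a26 without PE (0.05), were higher in 3 and lower in 2 in the libraries labelled siSlc25a26 PE (0.05), and had a positive difference between PE effects in 2 (0.04). Fibroblast markers (10 tested) rose in 2 and fell in 4 with PE in siNeg (-0.06) and likewise with PE in siSlc25a26 (-0.15), rose in 1 and fell in 7 in siSlc25a26 without PE (-0.66), were higher in 1 and lower in 8 under PE (-0.40), and had a positive difference in 2 (0.06). Macrophage markers (9 tested, 8 under PE) fell in 7 with PE in siNeg (-0.95), 2 with PE in siSlc25a26 (-0.14), 6 without PE (-0.88) and 2 under PE (-0.07), with a positive difference in 3 (0.68). Gata4, Srf and Myocd were highest in the libraries where the fibroblast and macrophage sums were lowest, and the part of these cells in the levels of the factors was not tested. Several of these counts moved when a library was left out. For cardiomyocyte markers the positive difference was 1 without siNeg 2 or 3, siNeg PE 2 or 3, siSlc25a26 2 or the libraries labelled siSlc25a26 PE 1 or 2, a negative difference was 1 without siSlc25a26 2, the lower count under PE was 1 without siNeg PE 1 or 2 or the libraries labelled siSlc25a26 PE 2 or 3, and the count that rose without PE was 2 without siNeg 3. For fibroblast markers the count that rose with PE in siNeg was 1 without siNeg 1 or 3 or siNeg PE 2, that with PE in siSlc25a26 was 0 without siSlc25a26 2 or 3 or the library labelled siSlc25a26 PE 2 and 1 without siSlc25a26 1 or the library labelled siSlc25a26 PE 3, and that without PE was 0 without siSlc25a26 1 or 3. Their positive difference was 1 without siSlc25a26 2, and a negative difference was 1 without the library labelled siSlc25a26 PE 3. For macrophage markers the positive difference was 1 without siNeg 1 or 2, siNeg PE 2 or 3, siSlc25a26 1 or 2 or the library labelled siSlc25a26 PE 3, the fall with PE in siSlc25a26 was 1 without siSlc25a26 1, 2 or 3 or the libraries labelled siSlc25a26 PE 1 or 2, and 1 rose there without the library labelled siSlc25a26 PE 1. On the FPKM scale the cardiomyocyte markers rose in 3 without PE and had a positive difference in 1 and a negative difference in 1, and the fibroblast markers rose in 1 with PE in siNeg and in 0 with PE in siSlc25a26, with a positive difference in 1. The fibroblast rise with PE in siSlc25a26 was also in 0 when all 12 libraries shared a fit and in 1 with a filter of 10 counts, and the macrophage fall there was in 1 in DESeq2 and in the shared fit.

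Mural markers (8 tested) rose in 2 and fell in 4 with PE in siNeg (median log2 fold change -0.23), rose in 3 and fell in 2 with PE in siSlc25a26 (-0.07), rose in 1 and fell in 5 in siSlc25a26 without PE (-0.30), were higher in 3 and lower in 3 under PE (0.07) and had a positive difference in 4 (0.53). Endothelial markers (8 tested, 7 under PE) rose in 1 and fell in 3 with PE in siNeg (-0.44), rose in 1 and fell in 2 with PE in siSlc25a26 (-0.34), fell in 2 without PE (-0.13), were higher in 1 and lower in 1 under PE (0.01), and had a median difference of 0.16 with 8 of 8 short of the threshold in edgeR. Epicardial markers (6 tested) rose in 1 and fell in 1 with PE in siNeg (-0.21), rose in 1 and fell in 3 with PE in siSlc25a26 (-0.51), rose in 1 and fell in 4 without PE (-0.57), were lower in 4 under PE (-1.23) and had a negative difference in 1 (-0.21). Interferon response genes (10 tested) rose in 1 and fell in 2 with PE in siNeg (-0.12), fell in 9 with PE in siSlc25a26 (-0.76), rose in 10 without PE and were higher in 10 under PE, and had a negative difference in 6 (-0.42). The part of these genes in the levels of the factors was not tested. For mural markers without PE, the fall was in 3 without siSlc25a26 2, and the rise in 0 without siNeg 1 or 2 or siSlc25a26 1, 2 or 3. For endothelial markers the rise with PE in siNeg was in 0 without siNeg 1 or siNeg PE 2 or 3, the fall with PE in siSlc25a26 was in 1 without siSlc25a26 2 or 3 or the library labelled siSlc25a26 PE 2, and the fall without PE was in 1 without siNeg 1 or 2 or siSlc25a26 2 or 3. Under PE their higher count was 0 without siNeg PE 3 or the library labelled siSlc25a26 PE 3, their lower count was 0 without siNeg PE 1 or 3 or the libraries labelled siSlc25a26 PE 1, 2 or 3, and 1 passed for the difference without siNeg 1. For epicardial markers the rise with PE in siNeg was in 2 without siNeg 1 and the fall in 3 without siNeg 3, and the fall without PE was in 2 without siSlc25a26 2. For interferon genes the fall with PE in siNeg was in 4 without siNeg 3 or siNeg PE 1, 1 rose with PE in siSlc25a26 without the library labelled siSlc25a26 PE 1, and the negative difference was in 3 without siNeg 1 or 2, siNeg PE 3 or siSlc25a26 1 or 2 and in 2 without the library labelled siSlc25a26 PE 2, while 1 had a positive difference without siNeg 3, siNeg PE 1 or the library labelled siSlc25a26 PE 3. On the FPKM scale mural markers rose in 1 with PE in siNeg and fell in 4 with PE in siSlc25a26, endothelial markers rose in 0 with PE in siNeg and were higher in 0 under PE, and epicardial markers rose in 2 without PE, with a negative difference in 2 by limma on log2(FPKM + 1). In DESeq2 endothelial markers fell in 1 with PE in siSlc25a26, 1 without PE and 0 under PE (limma-voom also 0), and the negative difference of interferon genes was in 2 by limma-voom. When all 12 libraries shared a fit, mural markers rose in 0 without PE (also with no filter) and endothelial markers fell there in 1, and with a filter of 10 counts epicardial markers rose in 0 without PE and had a negative difference in 0.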

How the data were processed

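RNA sequencing data of 12 libraries, 3 in each of 4 groups given by the labels, were analysed from 2 deposited tables. The authors deposited estimated counts per gene, which need not be whole, and FPKM values per gene. The submitters' processing notes name HISAT, Bowtie2 and Rnor_6.0, and the counter, annotation, strandedness and versions are not given in the sources used here. The design assumed whole counts, so the deposited estimated counts were rounded before testing. Of 18469 genes, 16962 identifiers matched RefSeq GRCr8.

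Genes were tested with edgeR 4.0.16 (R 4.3.3), using TMM factors, the filterByExpr filter, the quasi-likelihood test and Benjamini-Hochberg adjustment over all genes tested. Each pair of groups was fitted on its 6 libraries, and the difference between PE effects on all 12. A gene changed at an adjusted p under 0.05, and a fold change over 1.5 was counted as well. CPM used TMM factors, and log2 CPM a prior count of 2. Levels between genes used FPKM as deposited. Replicates differed by more than sampling noise. The test was checked on simulated data with known changes.

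The members and lists (SRF targets with MRTF or TCF coactivators, cardiac targets, partners, relatives, markers of 6 cell types and interferon genes) were chosen with earlier results of these data known. Besides the 10 factors and Slc25a26, the rule named the 3 most abundant genes of each list and up to 3 genes with the largest changes per comparison that passed, and other genes named were chosen after their values were seen. Alternatives were DESeq2 1.42.0, limma-voom and limma on log2(FPKM + 1) and log2(FPKM + 0.1) (limma 3.58.1), DESeq2's size factors in edgeR, no filter, at least 10 counts in every library, a replicate block, all 12 libraries in 1 fit, and leaving out each library. Some genes are not reported here.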

Additional observations from a re-analysis of the deposited data

Results flagged for a closer look

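By the edgeR test of the difference itself, the effect of PE differed between siSlc25a26 and siNeg for 34 of the genes followed by name. Those are the factors, Slc25a26, and the most abundant genes of each list and those most changed in this test. Because the most changed genes were named for passing this same test, the number 34 is not a result. Of all 14097 genes tested, 5.48% had a higher and 5.73% a lower PE effect. Other genes of the lists that passed are within the counts given above. The values are log2 PE effects in siSlc25a26 minus those in siNeg. Among the transcription factors these were Gata4 (0.44), Srf (0.44) and Gata6 (-0.32). Slc25a26 differed by 1.06. Among relatives and partners they were Gata3 (0.82), Lmcd1 (1.61), Hdac9 (-0.61) and Irx4 (-0.69). Among SRF targets they were Acta2 (0.88), Cnn1 (1.75), Myl9 (0.76), Actb (0.52), Tpm1 (0.34), Fhl1 (1.40), Egr1 (-0.43) and Junb (-0.68), and among cardiac targets Acta1 (1.95), Actc1 (0.92) and Gja5 (-1.03). Cardiomyocyte markers were Ldb3 (0.28) and Myom1 (0.47), and fibroblast markers Col1a1 (0.41) and Col3a1 (0.51). Mural markers were Pdgfrb (0.58), Cspg4 (1.10), Notch3 (0.59) and Mcam (0.57), and macrophage markers Csf1r (0.82), Itgam (1.03) and C1qa (1.05). The remaining genes were the epicardial marker Krt19 (-2.79) and the interferon genes Ifit2 (-0.84), Ifit3 (-1.13) and Mx1 (-1.39). Not all calls of this list held in the 20 alternatives (19 for Krt19): C1qa passed in 7, Mx1 and Tpm1 in 9, Ldb3 in 11, Ifit2 in 12, Itgam in 13, Egr1 and Notch3 in 14, Col1a1 and Gata3 in 17, and Hdac9 and Ifit3 in 19. Among values that moved by over 1.5 times, C1qa reached 0.59, Itgam 0.48, Csf1r 0.44, Gata3 0.40, Mx1 -0.76 and Krt19 -1.09. The calls of Srf and Gata6 that were lost without a library are given with their values above.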

How the results depend on the processing

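Of 360 tests of the 10 factors with a library left out, 320 kept their side of the threshold, 30 lost a call and 10 gained it, and of 440 under the other alternatives 418 kept their side, 5 lost a call and 17 gained it. No called value of a factor turned direction in these tests, though some values that were not called did. With a fold change over 1.5 as well, the changed factors numbered 2 for PE in siNeg, 0 for siSlc25a26 without PE, 1 under PE, 5 for PE in siSlc25a26 and 0 for the difference, and all genes 2838, 2229, 2162, 2825 and 776, because the rule is stricter. By limma on log2(FPKM + 1) and on log2(FPKM + 0.1), 5 factors changed in siSlc25a26 without PE, and the cause was not tested. Leaving out a library gave 4 to 7 factors for PE in siNeg, 2 to 6 without PE, 2 to 4 under PE, 7 to 8 for PE in siSlc25a26 and 1 to 4 for the difference. Over all genes it gave 4948 to 6621, 4742 to 6779, 3834 to 5112, 5793 to 7563, and 892 (without the library labelled siSlc25a26 PE 2) to 1806 (without siNeg 3). Mcl1, at 0.05 for PE in siSlc25a26 and not called, was -0.12 and called lower by limma on both FPKM scales (adjusted p = 0.0395 and 0.0417), where the median of all genes is -0.17.

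With the replicate number as a block, 8 factors changed for PE in siNeg, of 8462 genes, against 6785 genes without it, and Gata4 (edgeR adjusted p = 0.0239), Mef2a (9.33e-05) and Srf (0.00156) gained the call. Mef2a also gained it for the difference (0.0195), Mef2c lost it for PE in siSlc25a26 (0.0516), and 6659 genes changed under PE against 5488, 2271 for the difference against 1581, 6326 for PE in siSlc25a26 against 7219 and 6021 without PE against 6221. Libraries of the same number did not deviate together in every pair: the correlations of pairs 1, 2 and 3 were 0.218, -0.0239 and 0.351 for PE in siNeg, 0.0724, -0.0741 and 0.0976 without PE, 0.279, 0.0122 and 0.222 under PE, and -0.117, -0.0182 and -0.0519 for PE in siSlc25a26, and not every library correlated best with its own number. The numbers were therefore not taken to pair the libraries, and the cause of these moves was not tested.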
